A study of Mus musculus with 2 samples.

Results

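A set of 9 genes from 3 families of small binding proteins was followed in single bone marrow cells, namely S100a4, S100a6, S100a10 and S100a11 of the S100 proteins, Anxa1 and Anxa2 of the annexins, and Lgals1, Lgals3 and Lgals9 of the galectins. They were taken by symbol from the 31053 genes measured, and all 9 were found. They had been proposed from differences already seen in these same cells, and were thus selected on the difference of their levels between the libraries and between cell classes. The levels, ratios and counts given for them are a description of the 2 libraries. The study profiled haematopoietic stem cells (HSCs), the source of every blood lineage, by droplet-based single-cell RNA sequencing of bone marrow. The Listeria library came from wild-type C57BL/6J mice that had been challenged with the bacterium Listeria monocytogenes and were sampled 6 weeks later, and the naive library from untreated wild-type C57BL/6J mice. Both groups carry a stated age of 6 to 8 weeks, and it is not given whether this was the age at challenge or at sampling. The number of mice pooled and the sorting gate are not given in the sources used here. The deposited names of the files refer to a knockout for the Listeria library and to wild type for the naive library, whereas the labels give wild type for both, so an effect of infection and one of genotype cannot be told apart from the files alone.

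Most S100 proteins are small calcium sensors that change shape when calcium rises and then grip a partner protein. Annexins bind the inner face of membranes when calcium is present and organise vesicles, membrane repair and the cell cortex, and some S100 proteins bind directly to annexins, S100a10 to Anxa2 and S100a11 to Anxa1. Galectins bind galactose-containing sugars on cell surface proteins, where they cross-link receptors, and several of them also work inside the cell. In blood, most of these genes are known from mature myeloid and lymphoid cells, where they take part in migration, secretion and inflammation.

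S100a4, Anxa2 and Lgals3 had the largest differences in the stem cell compartment, and the sequence around their transcription start is shown for that reason. The windows run from 250 bases before to 50 bases after the start in RefSeq on GRCm38.p6, each read on its gene's plus strand. S100a4 lies at chr3:90603520-90603819, Anxa2 at chr9:69453433-69453732 and Lgals3 at chr14:47373610-47373909. Capitals mark 3 motifs searched on both strands, the AP-1 motif TGANTCA, the GC box GGGCGG and the TATA box TATAAA, and no match overlapped another.
S100a4: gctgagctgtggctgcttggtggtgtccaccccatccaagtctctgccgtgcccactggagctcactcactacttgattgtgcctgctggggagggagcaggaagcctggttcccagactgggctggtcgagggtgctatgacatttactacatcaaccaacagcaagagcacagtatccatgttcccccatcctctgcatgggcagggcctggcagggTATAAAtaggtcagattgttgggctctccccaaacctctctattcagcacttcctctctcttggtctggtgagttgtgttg
Anxa2: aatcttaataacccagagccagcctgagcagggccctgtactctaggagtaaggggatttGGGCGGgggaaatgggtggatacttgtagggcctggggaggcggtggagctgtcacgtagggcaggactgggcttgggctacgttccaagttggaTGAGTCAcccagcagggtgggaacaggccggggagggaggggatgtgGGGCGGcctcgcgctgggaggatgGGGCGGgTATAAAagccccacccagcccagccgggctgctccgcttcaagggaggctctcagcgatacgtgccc
Lgals3: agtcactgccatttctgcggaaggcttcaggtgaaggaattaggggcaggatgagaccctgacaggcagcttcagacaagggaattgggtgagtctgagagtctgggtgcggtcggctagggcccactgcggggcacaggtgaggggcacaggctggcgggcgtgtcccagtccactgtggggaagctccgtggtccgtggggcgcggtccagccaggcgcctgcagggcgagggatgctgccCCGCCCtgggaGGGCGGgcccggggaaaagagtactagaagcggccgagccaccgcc
The S100a4 window held a TATA box and neither other motif. The Anxa2 window held 1 AP-1 motif, 3 GC boxes and a TATA box, and the Lgals3 window 2 GC boxes alone, 1 of them on the reverse strand. The 3 genes therefore shared no motif of those searched. Windows were matched for 7 of the 9 members, not for S100a10 and Lgals1. Among the 7, the AP-1 motif was in 2 (Anxa2 and S100a11), the GC box in 3 and the TATA box in 3, against 7.81%, 35.7% and 13.6% of 32851 windows of the same length over all genes. A match describes the letters only. In the gene annotation (GENCODE vM21, mm10) S100a4 (ENSMUSG00000001020) spans chr3:90603771-90606045, Anxa2 (ENSMUSG00000032231) chr9:69453620-69491795 and Lgals3 (ENSMUSG00000050335) chr14:47367751-47386160, so the Lgals3 window lies inside the annotated gene and the others reach over its start. S100a4 overlaps Gm42674 on the same strand, Anxa2 overlaps the antisense gene Gm16144, and Anxa1 overlaps the antisense gene 1500015L24Rik. The strand used in counting is not given in the sources used here, so reads of these pairs cannot be told apart.

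The Listeria library held 43895966 UMIs (unique molecular identifiers, each marking 1 captured transcript) and the naive library 64619150. Cells with at least 2500 UMIs, at least 500 genes and at most 10% mitochondrial UMIs were kept, 4839 in the Listeria and 6375 in the naive library, with medians of 7239 and 6972 UMIs per cell. The libraries shared 14 cell barcodes. Clustering without any S100, annexin or galectin gene gave 25 clusters, and 24 of them were named from marker genes. HSC-like cells numbered 2091 in the Listeria and 1818 in the naive library, multipotent-like cells 859 and 1476, and megakaryocyte lineage-like cells 934 and 605. Cells of lymphoid and myeloid types, called mature cells here, numbered 691 and 1943. That name is loose, since B cell-like cells made up 388 and 1364 of them. The B cell-like cluster 8 was led by Vpreb1, Rag1 and Igll1, genes of B cell precursors, and cluster 3 by histone genes such as Hist1h1b. Clusters 18 (1004 Listeria and 35 naive cells) and 10 (349 and 26) came over 90% from 1 library. A level is the number of UMIs of a gene for every 1000000 UMIs of the cells named (CPM), and since only the 3′ ends were captured, levels are compared within a gene. With 1 library per group no value has a replicate check, no test was possible, and all 95% intervals cover counting error only. Each difference is therefore one between these libraries, not shown to be one between infected and untreated mice. A gene was counted as higher or lower when it differed over 1.5-fold and reached 10 CPM on at least 1 side.

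Over all kept cells, 3 of the 9 members were higher in the Listeria library and 1 was lower, where 3.17% of 8183 genes were higher and 3.47% lower. Lgals3, a galectin abundant in macrophages that can link itself into chains, had 77.7 CPM in the Listeria and 39.7 CPM in the naive library. Anxa2 had 102 CPM in the Listeria and 52.8 CPM in the naive library, and S100a4, which binds non-muscle myosin and loosens its filaments, 65.6 and 36.7 CPM. Lgals1, a galectin that binds as a pair of identical subunits, was the member that was lower, with 89.0 CPM in the Listeria and 165 CPM in the naive library. The members' median log2 ratio of 0.12 lay near the median over all genes, 0.07. These values mix cell classes whose shares differed between the libraries. B cell-like cells, for example, which were rich in Lgals1, formed 8.02% of the Listeria and 21.4% of the naive library, and at the naive library's make-up of clusters Lgals1 had a log2 ratio of -0.13.

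**Figure D1:**
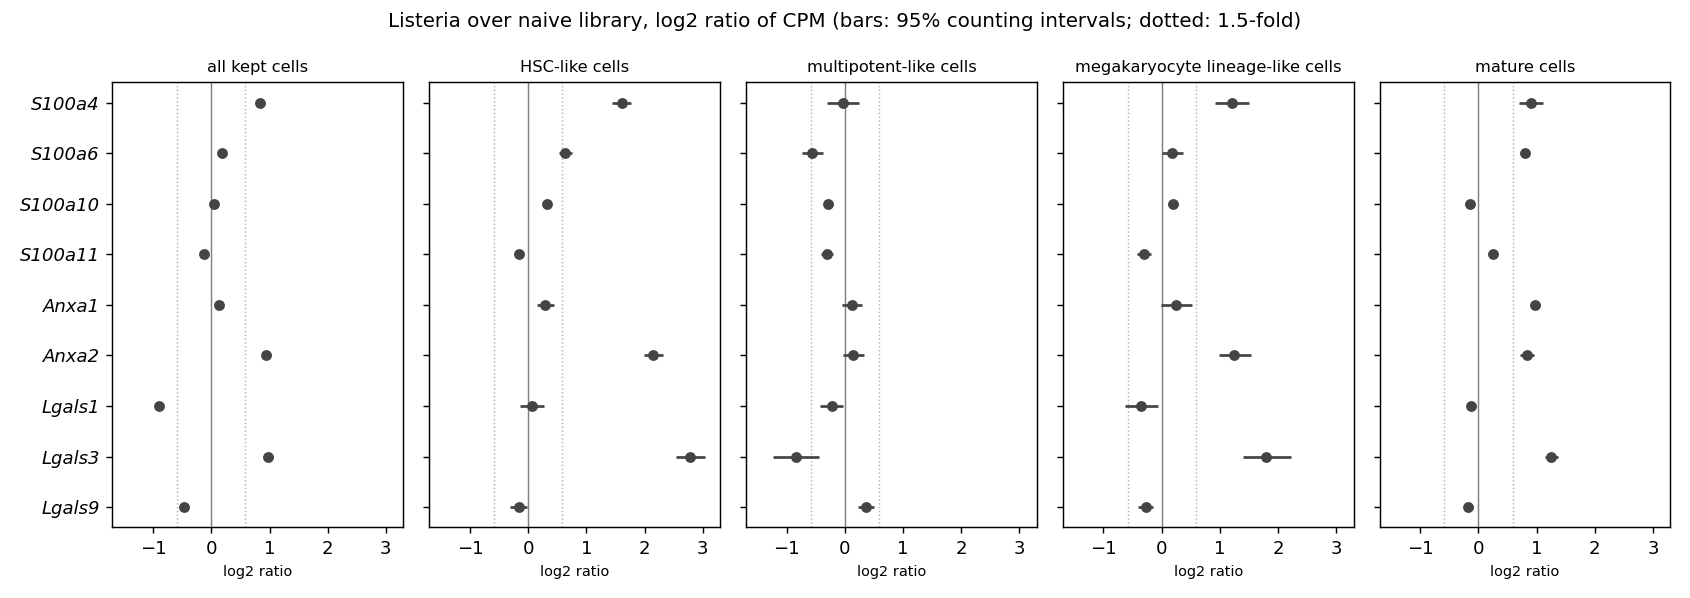
Log2 ratio of CPM, Listeria over naive library, for each of the 9 genes (vertical) in all kept cells and in 4 sets of cells (panels); points are ratios, bars 95% counting intervals and dotted lines a 1.5-fold difference. Lgals3, Anxa2 and S100a4 lie furthest to the right in HSC-like cells, at 2.79, 2.15 and 1.61, and Lgals3 lies left of 0 in multipotent-like cells, at -0.83.

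In HSC-like cells 4 of the 9 members were higher in the Listeria library, Lgals3, Anxa2, S100a4 and S100a6, and none was lower, where 10.6% of 7958 genes were higher and 5.62% lower. Lgals3 was at 84.5 CPM in Listeria cells and 12.3 CPM in naive cells, a log2 ratio of 2.79 (2.54 to 3.04). Anxa2, which forms a complex with S100a10 under the membrane, was at 137 CPM in Listeria cells and 31.0 CPM in naive cells, a log2 ratio of 2.15 (1.99 to 2.31). S100a4 was at 100.2 CPM in Listeria cells and 32.9 CPM in naive cells, a log2 ratio of 1.61 (1.45 to 1.77). For these 3 genes the interval of each ratio lay wholly above a 1.5-fold difference, which is 0.58 on the log2 scale. S100a6, calcyclin, a calcium sensor often raised in dividing cells, passed the limit narrowly, with 133 CPM in Listeria cells and 85.3 CPM in naive cells and a log2 ratio of 0.64 (0.53 to 0.75).

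The other 5 members differed less in HSC-like cells. S100a10, the partner of Anxa2, was at 338 CPM in Listeria cells and 269 CPM in naive cells, a log2 ratio of 0.33 (0.27 to 0.39), far below that of Anxa2. S100a11 was at 199 CPM in Listeria cells and 222 CPM in naive cells, and its partner Anxa1, a protein that restrains inflammation through formyl peptide receptors, at 62.9 and 51.3 CPM. Lgals1 was at 28.9 CPM in Listeria cells and 27.6 CPM in naive cells, with an interval of the log2 ratio from -0.14 to 0.28. Lgals9, a galectin with a pair of unlike sugar-binding domains and a ligand of the receptor Havcr2, was at 53.0 CPM in Listeria cells and 59.4 CPM in naive cells. With free RNA subtracted, Anxa1, Lgals9 and Lgals1, whose naive level the subtraction brought to 0, also passed the limit, which made 7 members higher. This subtraction fell almost wholly on the naive library. Its estimated naive share was too high for Lgals3 and Anxa2, as given with the other settings. No share over all genes was computed with it, so the count of 7 has no background. Without the subtraction, the members' median log2 ratio was 0.33 against 0.09 over all genes.

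The share of cells that showed the genes differed in the same direction. Each cell was thinned to 2500 UMIs so that depth did not set the share. Lgals3 was then seen in 14.9% of Listeria HSC-like cells (13.4% to 16.5%) and 2.81% of naive ones (2.10% to 3.67%), and without thinning in 26.2% and 6.22%. Anxa2 was seen in 22.4% of Listeria and 6.71% of naive cells, and S100a4 in 18.9% and 7.76%. In B cell-like cells, where the 3 genes stood at 8.45 CPM or less in the Listeria and 9.90 CPM or less in the naive library, the thinned shares were 0 of 388 Listeria cells and 0.440% of naive cells for Lgals3 (the 0 allows a share of up to 0.946%), 0.258% and 0.880% for Anxa2, and 1.29% and 1.91% for S100a4. The HSC-like shares lay above these background shares in both libraries. RNA outside cells held Lgals3 at 93.8 CPM in the Listeria and 34.2 CPM in the naive library, and Anxa2 at 84.6 and 47.4 CPM, and its part in the levels was not tested beyond the subtraction given with the other settings. Median depth was 6421 UMIs in Listeria and 6468 in naive HSC-like cells, and 9773.5 and 9282.5 in B cell-like cells.

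Markers of cells that carry much Lgals3 and Anxa2 were examined in HSC-like cells. The 12 neutrophil markers summed to 144 CPM in Listeria and 212 CPM in naive HSC-like cells, with 1 and 3 of them at 10 CPM or more and 1 and 0 at 0. Neutrophil-like cells themselves held S100a8, the most abundant transcript of granulocytes along with S100a9, at 89406.5 CPM in the Listeria and 113540 CPM in the naive library, and HSC-like cells 26.1 and 59.7 CPM. The 12 monocyte or macrophage markers summed to 46.8 CPM in Listeria and 56.1 CPM in naive HSC-like cells, with 2 and 3 at 10 CPM or more, and Adgre1, which encodes the macrophage protein F4/80, was at 0 in both. The 14 dendritic cell markers summed to 698 and 690 CPM, nearly alike, with 6 of them at 10 CPM or more in each library. The highest were Cd74, at 231 CPM in Listeria, and Cst3, at 260 CPM in naive HSC-like cells. Siglech, Xcr1 and Cd209a were at 0 in the Listeria and Cd209a at 0 in the naive library. The 11 NK cell markers summed to 129 CPM in Listeria and 39.6 CPM in naive HSC-like cells, of which Ccl5, a chemokine that other cells also make, gave 125 and 35.1 CPM, while Ncr1, Gzma, Klre1 and Klra8 were at 0 in both. The T cell list (13 markers) summed to 50.8 CPM in Listeria and 49.97 CPM in naive HSC-like cells and the B cell list (13 markers) to 16.9 and 64.3 CPM. Summed levels of the neutrophil, monocyte or macrophage and B cell lists were thus lower in Listeria than in naive HSC-like cells, and that of the NK cell list was higher through Ccl5. The myeloid progenitor list (11 markers) was also higher in Listeria HSC-like cells, at 1333 against 1282 CPM. So was the megakaryocyte lineage list (19 markers), at 1123 against 942 CPM, and the multipotent list (12 markers) was lower, at 688 against 767 CPM. The HSC markers themselves, 18 in number, summed to 2239 CPM in Listeria and 3240 CPM in naive HSC-like cells, and 17 and 18 of them reached 10 CPM.

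The differences in HSC-like cells were concentrated in cluster 18. In the Listeria library cluster 18 gave 48.9% of all UMIs of the class, and 87.7% of those of Lgals3, 80.7% of those of S100a4, 79.0% of those of Anxa2 and 71.1% of those of S100a6. Its shares of S100a11, Anxa1, Lgals1 and Lgals9 ran from 49.1% to 56.0%, close to its share of all UMIs, and its share of S100a10 was 62.3%. Most naive HSC-like cells lay in clusters 0 and 1 (700 and 767 cells, against 432 and 191 Listeria cells). Cluster 18 counted 10 of the 18 HSC markers and none of these was among its 10 leading genes, which included Csf2rb, Jup and Lrrfip1. Since nearly all its cells came from the Listeria library, a cell state and an effect of that library cannot be told apart. The HSC-like name of these cells depended on the clustering. At the coarser resolution of 0.5 all 1004 Listeria cells of cluster 18 were HSC-like, whereas at resolution 2 the name went to 314 of them (31.3%), and 615 (61.3%), with 77.5% of the cluster's Listeria Lgals3 UMIs, were named multipotent-like. Over HSC-like, multipotent-like and megakaryocyte lineage-like cells together, a set chosen after seeing the data, the log2 ratios were 1.86 for Lgals3, 1.31 for Anxa2, 1.24 for S100a4 and 0.31 for S100a6. Without cluster 18 the HSC-like log2 ratios were 0.97 for Anxa2, 0.80 for Lgals3, 0.19 for S100a4 and -0.17 for S100a6, so that 2 members were higher. With both libraries weighted to the naive library's make-up of clusters they were 0.83, 0.90, 0.29 and -0.15. The share of all genes past the limit was not computed without cluster 18 or at that make-up.

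**Figure D2:**
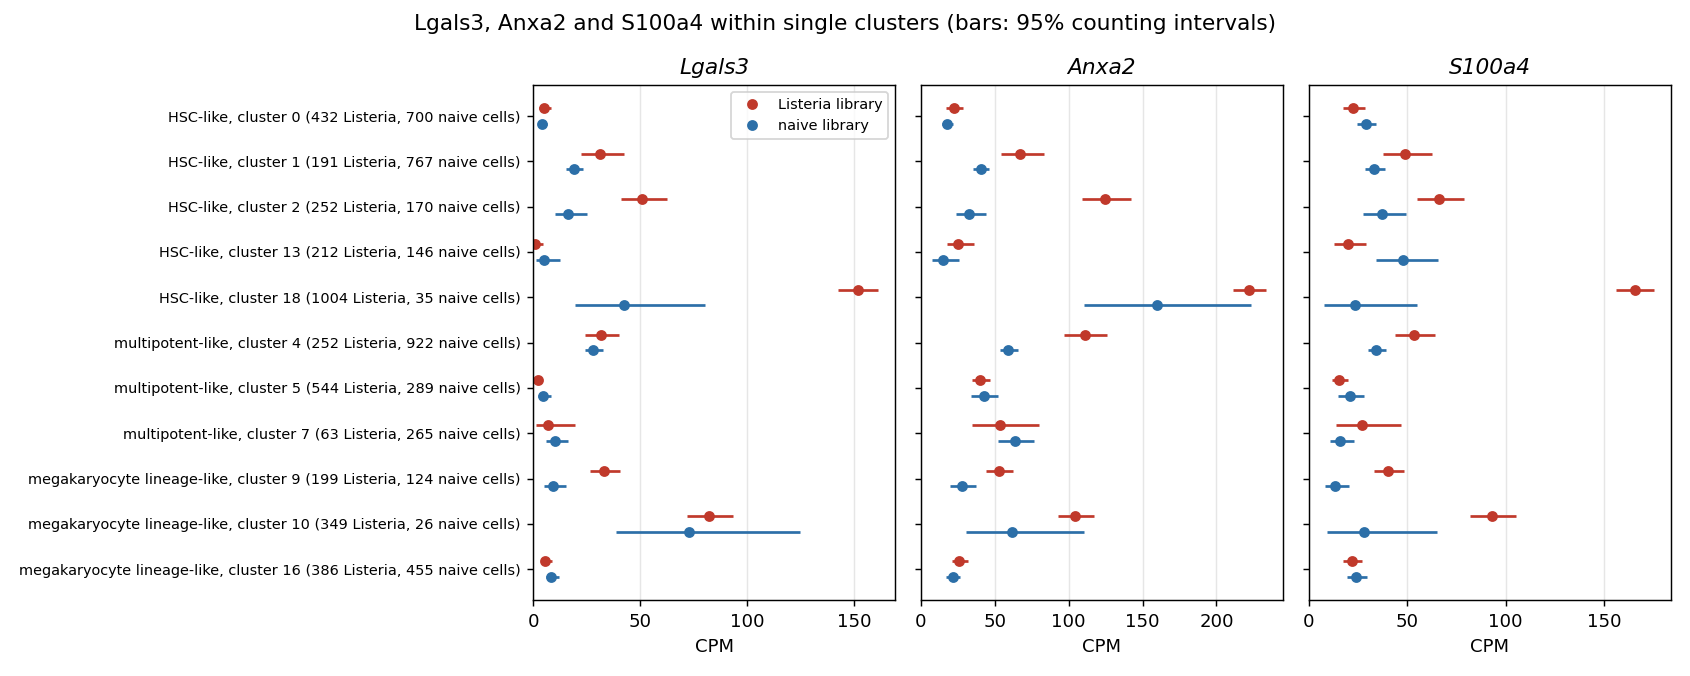
CPM of Lgals3, Anxa2 and S100a4 (panels) in each HSC-like, multipotent-like and megakaryocyte lineage-like cluster (vertical), for the Listeria (red, upper point) and naive (blue, lower point) library; bars are 95% counting intervals. In the Lgals3 panel clusters 18 and 10 reach the highest Listeria levels, 152 and 82.0 CPM, and clusters 0, 13, 5 and 16 stay under 10 CPM in both libraries.

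The 3 genes did not follow the same course within clusters. In cluster 18 Lgals3 was at 152 CPM in Listeria cells and 42.3 CPM in the 35 naive cells, and S100a4 at 166 and 23.5 CPM, whereas Anxa2 was at 222 and 160 CPM, with an interval of the log2 ratio from -0.01 to 1.01. The naive values rest on 9, 5 and 34 UMIs. In cluster 2, led by the interferon-response genes Rsad2, Cxcl10 and Ifit1, all 3 were higher in Listeria cells, Anxa2 at 125 CPM against 32.7 CPM in naive cells, Lgals3 at 50.7 against 16.3 CPM and S100a4 at 66.2 against 37.3 CPM. In cluster 1, with 191 Listeria and 767 naive cells, Anxa2 was at 67.3 and 40.4 CPM and Lgals3 at 31.4 and 19.0 CPM. In cluster 0, led by Meg3, Id1, Hes1 and the HSC marker Procr, the 3 genes stayed low in both libraries, with Lgals3 at 4.87 CPM in Listeria and 4.04 CPM in naive cells, Anxa2 at 22.3 and 17.8 CPM and S100a4 at 22.6 and 29.3 CPM. In cluster 13 S100a4 was lower in Listeria cells, at 19.7 CPM against 48.2 CPM in naive cells.

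Over the 16 clusters with at least 50 cells of each library, Anxa2 was measured in 14. It was higher over 1.5-fold in the Listeria library in 7 of these, was lower in none, and had a ratio above 0 in 12, with a median log2 ratio of 0.57. S100a4 was higher in 6 of 14 clusters and lower in 1, and Lgals3 was higher in 5 of 10 and lower in 2. Over the same clusters 1.6% to 22.6% of genes were higher (median 9.1%) and 1.41% to 16.4% lower. S100a10 passed the limit in none of 16 clusters, with log2 ratios from -0.45 to 0.32, and S100a6 was higher in none of 15 and lower in 2. Lgals1 was lower in 5 of 16 clusters and higher in 1, S100a11 was lower in 2 of 16 and higher in none, Anxa1 was higher in 1 and lower in 1, and Lgals9 was lower in 1 and higher in none. Anxa2, S100a4 and Lgals3 each passed the limit in 7 clusters in all, Anxa2 always upwards.

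Clusters 18 and 10, which had the highest Listeria levels of Lgals3 among the HSC-like, multipotent-like and megakaryocyte lineage-like clusters, were low in Fos, an immediate early gene that is quickly raised by stimulation and by the handling of cells. Fos was at 20.2 CPM in Listeria and 65.7 CPM in naive cells of cluster 18, and at 20.1 and 50.3 CPM in cluster 10. Clusters low in Lgals3 held more of it. Listeria and naive cells held Fos at 1736 and 1035 CPM (cluster 0), 2573 and 3280 CPM (cluster 13), 2072 and 1540 CPM (cluster 5), and 1065 and 573 CPM (cluster 16). Clusters 1, 2 and 4 were also low in Fos, at 162, 118 and 170 CPM in Listeria cells. In naive cells of these clusters Fos was at 186, 102 and 196 CPM. Their Lgals3, both libraries pooled, was at 21.4, 36.5 and 28.9 CPM, against 148 CPM in cluster 18. Cluster 9, where Lgals3 was higher in Listeria cells, held Fos at 606 CPM in Listeria and 865 CPM in naive cells. Whether this has a part in the levels of the 3 genes was not tested.

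Some single cells carried several of the genes at once. Over Listeria HSC-like cells Spearman's correlation of Lgals3 was 0.28 with Anxa2 and 0.22 with S100a4. Over naive HSC-like cells it was 0.03 and 0.0002. The share of cells expected to show several genes from the detection of each alone was not computed. In thinned HSC-like cells, at least 1 UMI of each of Lgals3, Anxa2 and S100a4 was found in 63 of 2091 Listeria cells (3.01%, 2.32% to 3.84%) and in 1 of 1818 naive cells, and 60 of those 63 lay in cluster 18. None of the 3 was seen in 60.9% of Listeria and 83.8% of naive cells. At least 5 of the 9 members were seen in 124 Listeria cells (5.93%) and 6 naive cells (0.330%), and no HSC-like cell showed all 9. In mature cells at least 5 were seen in 103 of 691 Listeria (14.9%) and 163 of 1943 naive cells (8.39%), and 1 naive cell showed all 9.

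Cells with an Lgals3 UMI were compared with the other HSC-like cells of their library. In the Listeria library, Anxa2 was seen in 49.2% of the 311 cells with Lgals3 and in 17.8% of the 1780 without, S100a4 in 38.3% and 15.5%, and S100a6 in 41.8% and 18.5%. Lgals9 differed in the other direction, at 7.72% and 11.3%. In the naive library, the 51 cells with Lgals3 and the 1767 without showed Anxa2 in 11.8% and 6.56%, and S100a4 in 7.84% and 7.75%. Since 273 of the 311 Listeria cells lay in cluster 18, the shares were also taken within that cluster, where Anxa2 was seen in 51.3% of cells with Lgals3 and 31.5% of those without, and S100a4 in 39.9% and 26.7%. In the 38 Listeria cells with Lgals3 outside cluster 18, Anxa2 was seen in 34.2% and S100a4 in 26.3%, against 8.20% and 7.72% of the 1049 other cells.

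**Figure D3:**
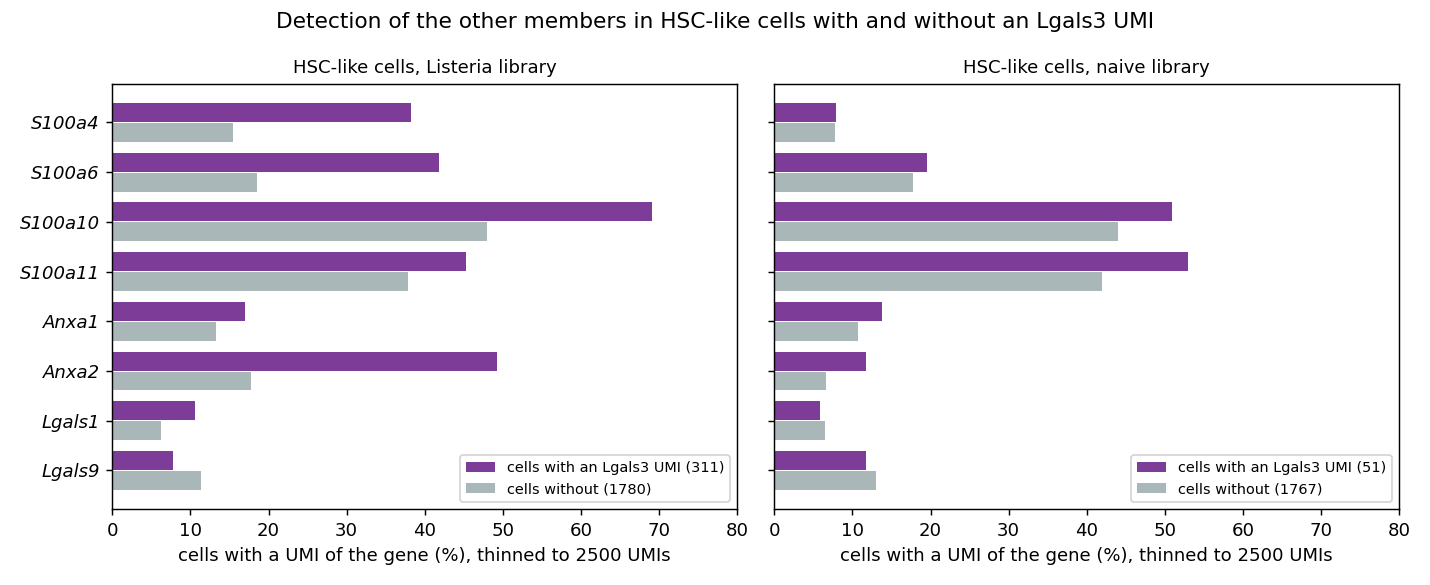
Share of HSC-like cells with a UMI of each other member (horizontal, percent of cells thinned to 2500 UMIs) among cells with an Lgals3 UMI (purple) and without one (grey), in the Listeria (left) and naive (right) library. In the Listeria library the purple bars of Anxa2, S100a4 and S100a6 reach 49.2%, 38.3% and 41.8%, and in the naive library those of the same genes reach 11.8%, 7.84% and 19.6%.

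In multipotent-like cells, progenitors that have left the stem cell state but still feed several lineages, none of the 9 members was higher in the Listeria library and Lgals3 was lower, where 9.9% of 8049 genes were higher and 2.91% lower. Lgals3 was at 11.3 CPM in Listeria and 20.1 CPM in naive cells, a log2 ratio of -0.83 (-1.23 to -0.45). S100a6 was at 53.5 CPM in Listeria and 78.9 CPM in naive cells, and S100a10 at 324 and 395 CPM. S100a4 and Anxa2 were close, with 27.8 and 28.4 CPM of S100a4 and 62.5 and 56.4 CPM of Anxa2 in Listeria and naive cells. The members' median log2 ratio was -0.23, against 0.13 over all genes, and TMM and median-ratio scaling moved all ratios of this class by -0.13. S100a6, with a log2 ratio of -0.56, then stood at -0.69 and passed the limit, so that 2 members were lower. The share of all genes lower under such scaling was not computed.

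The lower Lgals3 of multipotent-like cells went with the clusters they came from. Cluster 5, marked by Ccl9, Cd34 and Fos, held 544 Listeria and 289 naive cells and had Lgals3 at 2.06 and 4.35 CPM. Cluster 4, led by Cd34, Wfdc17 and Flt3, held 252 Listeria and 922 naive cells and had Lgals3 at 31.4 and 28.0 CPM. At the naive library's make-up of clusters the log2 ratio of Lgals3 was 0.07, and at a finer clustering (resolution 2), where most Listeria cells of cluster 18 carried the multipotent-like name, 2.83. Within cluster 4, Anxa2 was at 111 CPM in Listeria and 59.0 CPM in naive cells and S100a4 at 53.3 and 34.4 CPM, so that 2 members were higher there, where 6.92% of 7777 genes were.

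Set against HSC-like cells of the same library, multipotent-like cells had more Lgals1 in both libraries, with 50.5 CPM in multipotent-like and 28.9 CPM in the HSC-like class of the Listeria library, and 59.1 and 27.6 CPM in those of the naive library. Lgals1 was the only member over 1.5-fold higher in both libraries. In all, 2 members were higher and 4 lower in the Listeria library, where 17.9% of 8237 genes were higher and 10.4% lower. In the naive library 3 were higher and none lower, where 6.1% of 7946 genes were higher and 7.83% lower. Lgals9 had log2 ratios of 1.09 and 0.56, the second just inside the limit. Lgals3 changed order between the libraries, at 11.3 CPM in multipotent-like and 84.5 CPM in the HSC-like class of the Listeria library, and at 20.1 and 12.3 CPM in those of the naive library. Anxa2 likewise was at 62.5 and 137 CPM in the Listeria and 56.4 and 31.0 CPM in the naive library.

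Megakaryocyte lineage-like cells were named for the lineage that makes platelets. HSC markers also summed to 1794 CPM in Listeria and 2141 CPM in naive cells of the class. The same 3 genes were higher in the Listeria library, 3 of 9 members against 3.83% of 8048 genes, and none lower, against 2.2%. Lgals3 was at 37.2 CPM in Listeria and 10.7 CPM in naive cells, a log2 ratio of 1.80 (1.40 to 2.22). Anxa2 was at 58.0 CPM in Listeria and 24.4 CPM in naive cells, a log2 ratio of 1.251 (0.98 to 1.53), and S100a4 at 49.2 and 21.3 CPM, a log2 ratio of 1.20 (0.91 to 1.51). The other 6 members lay between -0.35 (Lgals1) and 0.25 (Anxa1).

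Cluster 10, nearly all from the Listeria library, gave 30.8% of the UMIs of the class there and 68.0% of those of Lgals3. This cluster counted 9 of the 19 megakaryocyte lineage markers and 9 of the 18 HSC markers. Without it the log2 ratios were 1.00 for Lgals3, 0.69 for Anxa2 and 0.49 for S100a4, and S100a4 no longer passed the limit. At the naive library's make-up of clusters they were 0.53, 0.55 and 0.45, and none of the 3 passed it. In cluster 9, which came from both libraries (199 Listeria and 124 naive cells) and in which the dividing-cell genes Hmmr, Prc1 and Tpx2 were among the leading genes, Lgals3 was at 33.1 CPM in Listeria and 9.23 CPM in naive cells, Anxa2 at 52.6 and 27.7 CPM and S100a4 at 40.2 and 13.2 CPM. In cluster 16, the largest of the class, all 3 were low and within the limit or too low to count, with Anxa2 at 26.0 CPM in Listeria and 21.4 CPM in naive cells.

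Lgals9 was higher in megakaryocyte lineage-like than in HSC-like cells in both libraries. It was at 138 CPM in megakaryocyte lineage-like and 53.0 CPM in the HSC-like class of the Listeria library, and at 167 and 59.4 CPM in those of the naive library, log2 ratios of 1.38 (1.245 to 1.51) and 1.49 (1.35 to 1.63). No other member was higher than in HSC-like cells in either library, where 18.3% of 8238 genes were in the Listeria and 21.8% of 8314 in the naive library. In all, 5 members were lower in the Listeria library and 2 in the naive library. Anxa1 and S100a4 were lower in both, where 11.1% of genes were in the Listeria and 11.8% in the naive library. Anxa1 had 36.8 CPM in megakaryocyte lineage-like and 62.9 CPM in the HSC-like class of the Listeria library, and 31.0 and 51.3 CPM in those of the naive library.

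Mature cells carried the highest levels of most members, and each gene had its own distribution over 12 classes. In all, 5 of the 9 members (S100a4, S100a6, Anxa1, Anxa2 and Lgals3) were higher in mature cells of the Listeria library, where 3.86% of 7829 genes were higher and 1.3% lower. Neutrophil-like cells made up 91 of the 691 mature cells of the Listeria library and 96 of 1943 of the naive library. B cell-like cells, which include precursors, made up 388 and 1364. In the Listeria library the neutrophil-like cluster gave 79.4% of mature Anxa1 UMIs and 73.4% of S100a6 UMIs. Without that cluster 3 members were higher, and at the naive library's make-up of clusters none was (S100a6 then had a log2 ratio of -0.07). For neither count was the share over all genes computed. The counts over mature cells thus moved with their mixture, and the classes are given one by one.

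Among the S100 genes, S100a6 and S100a11 were highest in neutrophil-like cells. S100a6 was at 2479 CPM in the Listeria and 2382 CPM in the naive library there, and in dendritic cell-like cells, next in order, at 506 and 561 CPM. S100a11 was at 1223 and 1935 CPM in neutrophil-like cells, at 668 and 832 CPM in myeloid progenitor-like cells and at 453 and 452 CPM in dendritic cell-like cells. S100a10 had another order. It was at 719 and 609 CPM in NK cell-like and 652 and 612 CPM in dendritic cell-like cells, whose intervals overlapped in each library, and it was low in neutrophil-like cells (55.8 and 48.1 CPM) and in myeloid progenitor-like cells (14.5 and 24.3 CPM). By class, S100a4 was highest in dendritic cell-like (291 CPM in the Listeria and 175 CPM in the naive library), NK cell-like (282 and 233 CPM) and innate lymphoid progenitor-like cells (163 and 194 CPM). It was low in B cell-like cells (8.45 and 9.90 CPM). The T cell-like class pooled unlike clusters. Cluster 12 (29 Listeria and 54 naive cells) held S100a4 at 447 and 214 CPM and S100a6 at 806 and 778 CPM. Cluster 17 held S100a4 at 3.25 and 11.7 CPM and S100a6 at 9.74 and 21.1 CPM.

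Anxa1 was highest in neutrophil-like cells, with 2491 CPM in the Listeria and 2044 CPM in the naive library, then in myeloid progenitor-like cells, with 467 and 536 CPM. Anxa2 was high in 4 mature classes, at 551 and 418 CPM in dendritic cell-like, 459 and 455 CPM in neutrophil-like, 358 and 335 CPM in T cell-like and 321 and 251 CPM in NK cell-like cells. In the naive library the intervals of dendritic cell-like and neutrophil-like cells overlapped, and so did those of T cell-like and NK cell-like cells in the Listeria library. B cell-like cells held 4.72 CPM of Anxa2 in the Listeria and 3.13 CPM in the naive library.

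Among galectins, Lgals3 was highest in dendritic cell-like cells (1406 CPM in the Listeria and 935 CPM in the naive library) and neutrophil-like cells (850.1 and 635 CPM). After these, in the Listeria library, came myeloid progenitor-like cells at 88.2 CPM (67.5 to 113), HSC-like cells at 84.5 CPM (79.8 to 89.4) and innate lymphoid progenitor-like cells at 78.2 CPM (62.6 to 96.4), with overlapping intervals. In the naive library HSC-like cells, at 12.3 CPM, came below NK cell-like, innate lymphoid progenitor-like and multipotent-like cells, at 33.9, 26.7 and 20.1 CPM, and their interval (10.4 to 14.4) overlapped those of myeloid progenitor-like and T cell-like cells. Lgals1 was highest in dendritic cell-like cells (1291 and 1475 CPM) and common in T cell-like (324 and 416 CPM) and B cell-like cells (314 and 329 CPM). Lgals9 was highest in B cell-like cells, with 435 CPM in the Listeria and 419 CPM in the naive library, where Lgals3 was at 3.73 and 1.53 CPM. Of the 9 members, 5 were higher in mature than in HSC-like cells in both libraries (S100a6, Anxa1, Lgals1, Lgals3 and Lgals9), and 3 without the neutrophil-like cluster. Of all genes, with the neutrophil-like cluster included, 25.6% were higher in mature cells in the Listeria and 28% in the naive library. S100a4 was lower in mature than in HSC-like cells in the Listeria library, where 26.4% of genes were, and no member was lower in the naive library, where 23.8% were.

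**Figure D4:**
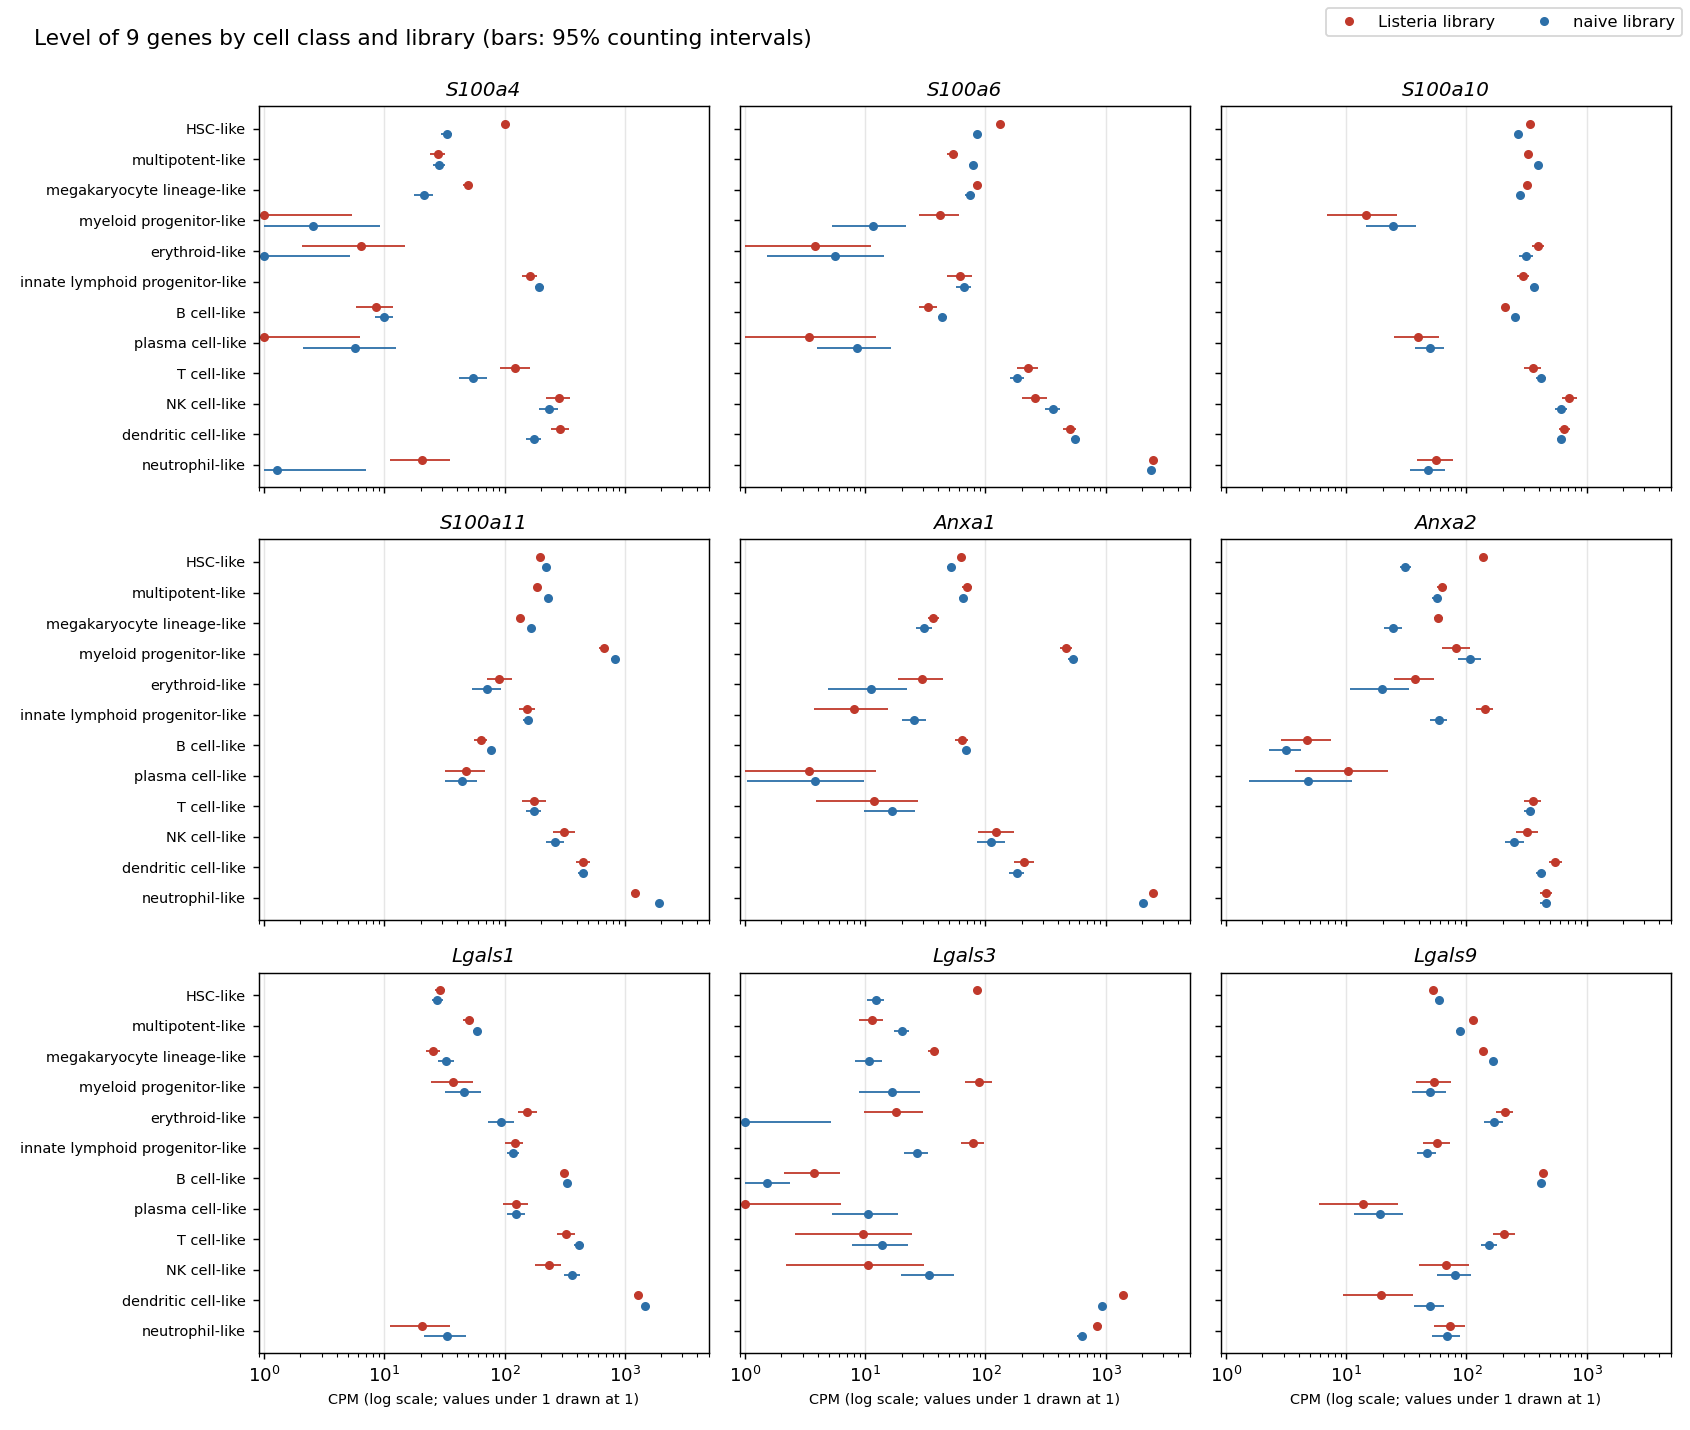
CPM (horizontal, log scale, values under 1 drawn at 1) of the 9 genes (panels) in 12 cell classes (vertical), for the Listeria (red, upper point) and naive (blue, lower point) library; bars are 95% counting intervals. S100a6, S100a11 and Anxa1 peak in neutrophil-like cells, Lgals1 and Lgals3 in dendritic cell-like cells and Lgals9 in B cell-like cells, and the red and blue points of HSC-like cells lie furthest apart for Lgals3 and Anxa2.

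The levels of the members across clusters were compared over the 23 clusters with at least 50 cells, both libraries pooled, as Pearson's r of log2(CPM + 10). Anxa1 and S100a11, which bind each other, were the most alike pair, with r of 0.86, and Lgals3 and Anxa2 had 0.75. Anxa2 and S100a10, which also bind each other, had 0.20, and the least alike were Anxa1 and S100a10, at -0.41. Among 5856 other genes, the most like Lgals3 were Pik3cb (0.84), L1cam and Plbd1, and the most like Anxa2 were Hpcal1 (0.85), Ccdc186 and Tmem189. S100a4 was most like Ric1 (0.84), Pfkp and Ahnak, a large scaffold that binds the Anxa2 and S100a10 complex. S100a11 was most like Arpc1b (0.91), Sat1 and Mospd2, Anxa1 like Prdx5 (0.90), Lyz2 and Myd88, and S100a6 like Lasp1 (0.85), Vasp and Antxr2. S100a10 was most like Kmt2b (0.89), Rptor and Pi4k2a, Lgals1 like Ifi209 (0.89), Cnp and Cd48, and Lgals9 like Hmgb1 (0.87), Emc8 and Slc16a1. Clusters share libraries and depth, so these values describe the pattern only.

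The other genes of the 3 families were taken from a list. Of 29 listed, 27 were in the files and 12 were measured in HSC-like cells. None of the 12 was higher in the Listeria library and 4 were lower, S100a1, S100a8, S100a9 and Lgals3bp, where 10.6% of all genes were higher and 5.62% lower. Their median log2 ratio was -0.26, against 0.09 over all genes. S100a8 was at 26.1 CPM in Listeria and 59.7 CPM in naive HSC-like cells, and S100a9 at 28.9 and 61.1 CPM. B cell-like cells, which do not make these granulocyte transcripts, held 12.9 and 17.8 CPM of S100a8. Anxa5 was at 174 CPM in Listeria and 179 CPM in naive HSC-like cells, and Lgals8 at 66.0 and 49.0 CPM. Over all kept cells none of 12 passed the limit either way (median 0.11), where 3.17% of all genes were higher and 3.47% lower. In multipotent-like cells none was higher and 2 were lower (median -0.03), where 9.9% of all genes were higher and 2.91% lower, and the same counts were found in megakaryocyte lineage-like cells (median -0.33), where 3.83% were higher and 2.2% lower. Among the family genes that the naming rule takes, the largest log2 ratios over all kept cells were 0.42 for Lgals8, 0.40 for Anxa3 and -0.33 for Anxa6, followed by Anxa5, S100a8 and Anxa11 at 0.32, -0.29 and -0.29.

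A list of 24 further genes, drawn up as partners and receptors, was also taken. Binding to the members was not examined, and for Crip1, Emp3, Tagln2 and Vat1 no bound member is given here. In HSC-like cells 17 were measured, 5 were higher in the Listeria library and none was lower, where 10.6% of all genes were higher and 5.62% lower. Their median log2 ratio was 0.37, against 0.09 over all genes. Ahnak was at 443 CPM in Listeria and 247 CPM in naive cells, Vim, the intermediate filament vimentin, at 885 and 499 CPM, and Havcr2, the receptor of Lgals9, at 17.6 and 5.93 CPM. The calpain Capn2 was at 56.0 and 26.3 CPM, and Vat1, a membrane protein of vesicles, at 89.8 and 56.7 CPM. Myh9, the non-muscle myosin bound by S100a4, was at 589 and 403 CPM, just inside the limit. Over all kept cells 2 of 16 were higher, Capn2 (log2 ratio 0.85) and Vat1 (0.66), and 1 was lower, Crip1 (-0.68), with a median of 0.23, where 3.17% of all genes were higher and 3.47% lower. The other genes of this list that the naming rule takes had log2 ratios of 0.63 (Fpr1), 0.40 (Plaur) and 0.39 (Spn). Fpr1, at 2.52 CPM in Listeria and 1.63 CPM in naive cells, was below the minimum level. In multipotent-like cells none of 18 was higher and 1 was lower (median -0.08), where 9.9% of all genes were higher and 2.91% lower. In megakaryocyte lineage-like cells 1 of 16 was higher and none lower (median 0.15), where 3.83% of all genes were higher and 2.2% lower.

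Cell division was compared within HSC-like cells, as cells with at least 2 UMIs of G2/M-phase genes against cells with none, after thinning. Of 171 cycling and 1441 other Listeria cells, Lgals3 was at 124 CPM in cycling and 84.1 CPM in other cells, a log2 ratio of 0.56 (0.11 to 0.98), and Anxa1 at 91.2 and 60.8 CPM, 0.59 (0.06 to 1.08). S100a10 was at 428 and 329 CPM, and Anxa2 at 138 and 122 CPM, with an interval that includes 0. In the naive library, with 106 cycling and 1283 other cells, S100a4 was at 64.2 and 32.1 CPM, from 17 and 103 UMIs, and S100a10 at 158 and 270.0 CPM. S100a10 thus had opposite signs in the libraries, and the interval included 0 for 6 of the 9 members in each.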

How the data were processed

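Single bone marrow cells of 2 libraries, Listeria and naive, were analysed from the deposited matrices of raw UMI counts per gene and droplet barcode. The authors made these counts with Cell Ranger 3.0.2 on mm10, per the submitters' processing notes. The labels' protocol names a single cell 3′ kit. Raw barcodes were filtered at 2500 UMIs, 500 genes and 10% mitochondrial UMIs, leaving 4839 Listeria and 6375 naive cells. Cells were clustered with scanpy 1.11.5 and igraph 0.11.9 in Python 3.11.15 (2000 variable genes, 30 components, 15 neighbours, Leiden resolution 1), without S100, annexin and galectin genes. A cluster was named when at least 3 markers and 45% of a marker list were present. The details of this naming rule were completed after the data were seen, and the members and lists were chosen with earlier results of these data known.

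UMIs were summed per class and library and given as CPM. Ratios carry exact binomial intervals and shares Clopper-Pearson intervals at 95% (scipy 1.17.1), for counting error only. Ratio intervals were tested on simulated data over all kept cells (7952 genes): they held the planted ratio for 94% of 50 genes raised 2-fold, 96% of 50 raised 1.5-fold and 95.3% of 7752 unchanged genes. Scaling by edgeR 4.0.16 (TMM) and DESeq2 1.42.0 (size factors) in R 4.3.3 was an alternative, and neither package's test was used. Scrublet called 1 cell in each library and so did not work on these data, and doublets remain. All 9 members are named, with the 6 genes of each list that differed most over all kept cells and the 3 genes most like each member. Genes named beyond these were chosen after their values were seen. Gene positions are from GENCODE vM21, promoters from RefSeq.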

Additional observations from a re-analysis of the deposited data

Results flagged for a closer look

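Lgals3 differed between the libraries in opposite directions in different classes. Its log2 ratio, Listeria over naive, was 2.785 in HSC-like cells, 1.800 in megakaryocyte lineage-like cells and 1.252 in mature cells, and -0.833 in multipotent-like cells. With 1 library per group the difference between classes was not tested. The multipotent-like value rests on 78 Listeria and 203 naive UMIs, and it was 0.072 at the naive library's make-up of clusters and 2.83 at Leiden resolution 2, where 615 of the 1004 Listeria cells of cluster 18 were named multipotent-like.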

How the results depend on the processing

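No paired analysis was possible because each group has 1 library and the labels give no replicate numbers. Of the counts of higher members under other settings, 106 stayed within 1.5 times and 24 moved. The share of all genes past the limit was not computed under these settings, so the counts below have no background. Over all kept cells (3 members higher) the count was 0 at the naive library's make-up of clusters and at a fold limit of 2, and 1 without clusters over 90% from 1 library or without cluster 18. In HSC-like cells (4) it was 7 with free RNA subtracted, and 2 at the naive make-up, without clusters over 90% from 1 library or without cluster 18. In multipotent-like cells (0) it was 4 at resolution 2, 2 with free RNA subtracted, and 1 at the naive make-up or a lower fold limit. In megakaryocyte lineage-like cells (3) it was 6 with free RNA subtracted, 0 at the naive make-up and 1 at a minimum of 50 CPM. In mature cells (5) it was 0 at the naive make-up, 1 at a fold limit of 2 and 3 without the neutrophil-like cluster. For multipotent-like over HSC-like cells (1) it was 2 at 5% mitochondrial UMIs, at resolution 2, with free RNA subtracted or at a lower fold limit, and 0 at a limit of 2. For mature over HSC-like cells (5) it was 3 without the neutrophil-like cluster. The estimated share of free RNA in cells was 0.659% in the Listeria and 26.5% in the naive library, so the subtraction falls almost wholly on the naive library. The naive estimate does not hold for all members. Naive RNA outside cells held Lgals3 at 34.2 CPM and Anxa2 at 47.4 CPM. Such a share of it would bring more of both than naive B cell-like cells had, 1.53 and 3.13 CPM. Counts with free RNA subtracted rest on this estimate and are not read as results. S100a6 turned to -0.15 in HSC-like cells at the naive make-up, to -0.17 without cluster 18 or without clusters over 90% from 1 library, and to -0.073 in mature cells at the naive make-up. Lgals3 in multipotent-like cells turned to 0.072 and 2.83, at the naive make-up and at resolution 2. Of the log2 ratios of single genes, 423 stayed, 181 moved and 6 reversed. At resolution 2 the HSC-like log2 ratios were 1.74 for Lgals3, 1.40 for Anxa2 and 0.70 for S100a4. Leaving out cluster 18 or the neutrophil-like cluster was chosen after seeing the data. The cause was not tested. Weighting to the naive make-up gives little weight to the clusters over 90% from 1 library. It therefore cannot tell a shift in make-up from a change of state that formed those clusters.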
